A study of Mus musculus with 20 samples.

Results

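The regions described here were open in unwounded skin cells and missing from the peak lists of all 3 wound stages, 1 and 8 weeks after a first wound and 1 week after a second. A region is a stretch of merged, overlapping peaks of the 10 deposited lists. A region was a member when a homeostasis peak overlapped it by at least 1 bp and no peak of any wound list did. There were 1052 such regions, which is 3.08% of the 34171 regions with a homeostasis peak and 1.04% of the 101406 regions of all lists together. The number depends on list length and peak strength: it was 2667 (7.70% of 34644) with the 4 lists cut to equal length by signal, and 46 (0.261% of 17597) when only the strongest 50% of homeostasis was set against the whole wound lists. They are called closed regions below, meaning that no peak was listed and not that the DNA was measured as shut.

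Open chromatin was profiled by ATAC-seq, in which Tn5 transposase cuts accessible DNA, in sorted tail epidermis cells of Lrig1CreER/Rosa-TdTomato mice. All groups share this genotype, in which a Cre driven by Lrig1 can switch on a red reporter in Lrig1-expressing cells and their descendants. All were sorted as Lrig1 GL and Sca1+. The labels do not spell out GL. The groups were the 3 wound stages named above, PRT4165 and vehicle (both titled week 0, as is homeostasis), wound with UVB, UVB, cells cultured from a distal memory region and from a control region (both titled 8 weeks after the first wound), and homeostasis. The list names in the labels mark the peaks as a conservative set from IDR, a filter on reproducibility between replicates, so a peak can be missing because it did not pass that filter. Each group had 2 libraries and 1 peak list made from both. Age, sex and the time of labelling are not given in the labels, nor whether the libraries of a group came from separate animals. No value per library exists, so no difference below was tested, and every interval is a Wilson 95% interval that covers counting error only.

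An ATAC peak marks DNA that is free enough of nucleosomes for the transposase to enter, as at active promoters and enhancers. Promoters of widely used genes tend to stay open in most cell types, whereas distal enhancers vary more with cell state and environment. In the epidermis, stem cells of the upper follicle can leave it after injury and take part in repair of the surface. PRT4165 blocks the PRC1 enzymes of the Polycomb system, which attach ubiquitin to histone H2A, and UVB is the ultraviolet band that damages DNA in keratinocytes.

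The list check against cell type markers gave a homeostasis region for 9 of 10 keratinocyte and lineage genes, 7 of them with a region within 1 kb of a gene end. Krt79, a keratin of the upper follicle, had none. Of 30 markers of other cell types, 17 had a region and 6 had one within 1 kb. Among melanocyte genes, Tyr and Tyrp1 had no region, while Mitf had 5, Pmel 2, and Dct and Sox10 1 each. Among T cell genes Cd3e, Cd3d, Cd4 and Cd8a had none, while Cd2 had 5 and Lck 1. The endothelial markers Pecam1, Tek, Cdh5 and Cldn5 all had regions (6, 6, 4 and 1). Closed regions were assigned to 3 of the keratinocyte and lineage genes, Trp63, Itga6 and Plet1, and to 1 of the other markers, Cd207. In bulk samples, fewer cells of a type and less open DNA per cell cannot be told apart where a peak is missing. Peaks within 1 kb of the ends of the Y-linked genes Ddx3y, Uty and Eif2s3y were listed in the 1-week, second-wound, wound with UVB and both culture lists, and in none of the other 5. The labels do not give sex, so a difference of animals and a difference of treatment cannot be told apart where such lists are set against the others. On autosomes alone there were 1026 members, 3.06% of 33526 regions, against 1052 with the X and Y chromosomes.

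Sequence could be read only where a closed region reached a promoter in the RefSeq table for GRCm38.p6, the assembly that mm10 names. This was so for 63 of the 1052 regions, which reached 75 listed promoters of 69 genes. The overlap ran from 17 bases (Gm52775) to all 300 bases of a promoter. Base content and motifs below were counted over all 300 bases, also those outside the closed region. The 4 promoters below are shown as the 250 bases before the start site, 5′ to 3′ on the gene's own strand, and were chosen after their values were seen. Gsta3 and Gsta2 encode glutathione transferases, enzymes that conjugate reactive compounds, and had peaks in the PRT4165, vehicle, wound with UVB and UVB lists but in neither culture list. Ly6c1 belongs to the same family of surface proteins as Sca1. Mmp14 encodes a membrane metalloproteinase that cuts collagen. Its closed region, which reached the promoter, was listed in homeostasis alone. Of the 3 homeostasis regions assigned to Mmp14, 2 were also in all 3 wound lists. The closed regions covered 250 (Gsta3), 181 (Gsta2), 225 (Ly6c1) and 117 (Mmp14) of the 250 bases shown. Capitals mark the CCAAT box (CCAAT) and the short NFI site (TTGGCA), on either strand.
Gsta3 (chr1:21240335-21240584, plus strand): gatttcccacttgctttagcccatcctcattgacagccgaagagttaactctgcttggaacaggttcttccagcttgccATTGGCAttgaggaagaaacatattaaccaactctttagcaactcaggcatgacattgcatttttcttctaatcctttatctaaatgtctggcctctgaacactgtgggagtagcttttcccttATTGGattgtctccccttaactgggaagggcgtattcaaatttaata
Gsta2 (chr9:78347146-78347395, minus strand): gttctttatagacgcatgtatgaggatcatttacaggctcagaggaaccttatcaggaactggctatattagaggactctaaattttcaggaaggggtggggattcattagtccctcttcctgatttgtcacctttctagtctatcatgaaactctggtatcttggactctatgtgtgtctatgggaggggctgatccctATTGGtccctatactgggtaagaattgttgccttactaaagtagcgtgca
Ly6c1 (chr15:75048838-75049087, minus strand): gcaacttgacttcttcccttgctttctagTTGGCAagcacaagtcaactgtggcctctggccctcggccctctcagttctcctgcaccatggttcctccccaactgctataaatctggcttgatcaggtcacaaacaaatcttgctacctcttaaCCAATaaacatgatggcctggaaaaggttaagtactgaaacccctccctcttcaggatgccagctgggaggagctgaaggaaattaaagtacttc
Mmp14 (chr14:54431348-54431597, plus strand): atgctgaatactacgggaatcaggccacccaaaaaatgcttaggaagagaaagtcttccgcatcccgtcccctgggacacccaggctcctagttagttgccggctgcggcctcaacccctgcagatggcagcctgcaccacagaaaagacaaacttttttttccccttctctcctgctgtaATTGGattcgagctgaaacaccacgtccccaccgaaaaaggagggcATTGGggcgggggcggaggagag
The Gsta3 stretch held 3 matches, of which a CCAAT box and an short NFI site overlap in a single run, 171 and 170 bases before the start, and a further CCAAT box lies 47 bases before it. Gsta2 had 1 CCAAT box, 50 bases before the start, and Mmp14 had 2, at 69 and 23 bases. Ly6c1 had an short NFI site at 221 bases and a CCAAT box at 95 bases. Glutathione transferase genes have similar copies, and how reads that fit several places were treated is not stated in the labels.

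At the Gsta3 promoter (region chr1:21240281-21240594) the signal value, the authors' measure of peak enrichment, was 9.35 in homeostasis. It was 16.5 with PRT4165, 15.1 with vehicle, 16.0 with wound and UVB and 16.5 with UVB, and no peak was listed in either culture. The Gsta2 promoter (region chr9:78346768-78347326) had 7.15 in homeostasis, 12.2 with PRT4165, 9.44 with vehicle, 16.4 with wound and UVB and 16.7 with UVB, and again none in culture. Both were thus present in a fresh list whose cells had been wounded, the one with UVB, although missing from all 3 wound stages. Ly6c1 (region chr15:75048762-75049062) was weaker, with 5.08 in homeostasis, 6.23 with PRT4165, 5.91 with vehicle, 4.72 with wound and UVB and 5.67 with UVB. The closed Mmp14 region (chr14:54431481-54431937) had a signal value of 3.48 in homeostasis and no peak in any other list. Signal values are the authors' own and rank peaks within a list. No fold is taken between lists.

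The promoters under closed regions had fewer CpG than those under kept regions, meaning regions found in homeostasis and in all 3 wound lists. Their median GC content was 58.0%, against 62.2% for the 10384 promoters under kept regions, with 52.7% over all 32817 listed promoters. The median CpG count per 300 bases was 12 under closed regions, 23 under kept regions and 7 over all promoters. A CCAAT box was present in 21.3% (13.6 to 31.9%) of the promoters under closed regions, 39.3% under kept regions and 37.4% of all. The ETS letters CCGGAAG were present in 10.7% (5.50 to 19.7%), 20.4% and 8.86% of these 3 sets. The letters AGNGGCG, which are not assigned to a factor here, were present in 26.7% (18.0 to 37.6%), 44.1% and 22.3%. The short NFI site went the other way, with 22.7% (14.7 to 33.3%) under closed regions, 10.4% under kept regions and 14.1% of all. The GATA letters AGATAA were present in 10.7% (5.50 to 19.7%), 4.93% and 11.2%. For these 5 motifs the interval under closed regions left out the share under kept regions, and for ETS, AGNGGCG and GATA it held the share of all promoters. Homeostasis regions missing at 8 weeks only, and then those missing at 8 weeks and after the second wound, gave these shares. ETS letters were in 12.9% and 5.98% and GATA letters in 6.10% and 9.83%, all within the intervals under closed regions. CCAAT was in 30.7% and 33.3% and AGNGGCG in 37.0% and 39.7%. For both, the first share lay within the interval under closed regions and the second above it. The short NFI site was in 11.7% and 10.7%, both below its interval. Overlapping promoters of one gene, or of neighbours, share bases and are not independent, and the table used has no promoters of chromosome 18.

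In all 24 motifs were searched on both strands of the 300 bases. The full NFI palindrome, which contains part of the short site, was present in 2 promoters under closed regions, 1 of 10384 under kept regions and 12 of all, but the 2 belong to Hrh1, the histamine receptor, and the predicted gene Gm38875, which share 1 region. CCAAT and short NFI letters occurred together in 5 promoters under closed regions, 6.67% (2.88 to 14.7%) against 5.46% under kept regions and 6.74% of all. They overlapped in 3, 4% (1.37 to 11.1%) against 2.19% and 2.74%, and both intervals held the shares under kept regions and of all promoters. For the other 18 motifs the interval under closed regions held the share under kept regions. These were AP-1 (TGANTCA), CRE (TGACGTCA), the p63 pair, GRHL (AACCGGTT) and its looser form (AACNGGTT, which contains it), TEAD (GGAATG), RUNX (TGTGGTT), NRF1, the GC box (GGGCGGGG), C/EBP (TTGCGCAA), STAT (TTCNNNGAA), FOX (TGTTTAC), SOX (ACAATGG), the E-box (CACGTG), NF-kB, the NRF2 type (TGACNNNGC), Lef/Tcf (ATCAAAG) and DR1. Among them AP-1 letters were in 2.67% of promoters under closed regions, 4.97% under kept regions and 7.81% of all, NRF2-type letters in 17.3%, 15.0% and 12.4%, and the GC box in 29.3%, 35.9% and 17.6%.

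Closed regions were weak and narrow in the homeostasis list that chose them. Their median signal value there was 6.33, with a range of 1.60 to 12.2, against a median of 10.2 for kept regions. The median width was 364 bp, against 700 bp for kept regions, and the median −log10 p of the peak was 23.9, against 70.0. A single peak made up 76.7% of the closed regions and 42.1% of the kept ones. Of the members, 845 (80.3%) fell in the weakest 30% of the homeostasis list and 3 in its strongest 30%. These values took part in choosing the members and are given with no test.

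**Figure D1:**
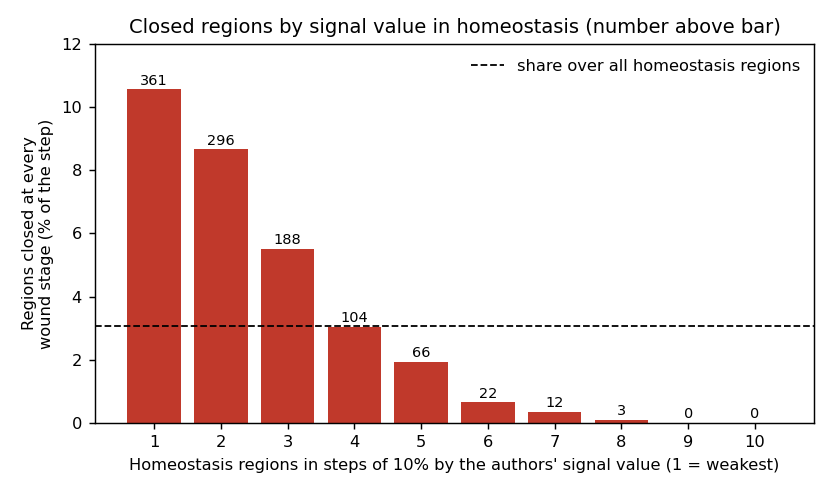
Share of homeostasis regions that were closed at every wound stage (y axis, %), for steps of 10% of the homeostasis list ordered by the authors' signal value (x axis, weakest first), with the number of closed regions above each bar and the share over all regions, 3.08%, as a dashed line. The share falls from 10.6% of the regions in the weakest step to 0 in the strongest 20% of the list.

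The distance from the wound peaks varied widely. The nearest wound peak of any stage lay a median of 5541 bp away, the smallest gap was 43 bp and the largest 2637065 bp. It was within 250 bp for 64 members, within 1 kb for 178 and within 10 kb for 671. Just outside the rule were 2354 homeostasis regions held by exactly 1 wound list, with a median signal value of 6.83 in homeostasis (2.75 to 26.5). Of these, 13 had no direct overlap between homeostasis and wound peaks and were joined only through peaks of other lists. Which list was asked mattered to the count: leaving the 1-week list out of the rule gave 2723 regions, leaving out the 8-week list 1312 and leaving out the second-wound list 1475.

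The 6 lists that the rule did not use offer a look at the same regions in other cells. A region of these members was listed with PRT4165 in 83.5% (81.1 to 85.6%) and with vehicle in 86.0% (83.8 to 88.0%), against 98.5% and 98.9% of all homeostasis regions. It was listed with wound and UVB in 69.3% (66.4 to 72.0%) and with UVB in 85.6% (83.3 to 87.5%), against 97.3% and 98.9%. In cells cultured from the distal memory region it was listed in 35.8% (33.0 to 38.8%) and from the control region in 44.4% (41.4 to 47.4%), against 68% and 72.9%. The intervals of the closed regions lay below the shares of kept regions in all 6 lists, where kept regions reached 99.8%, 99.9%, 99.7%, 99.9%, 74.7% and 78.8% in the same order. Regions missing only at 8 weeks, and regions missing at 8 weeks and after the second wound, lay between both. In the weakest 25% of the homeostasis list, within which the classes were not matched further in signal, vehicle held 84.6% of 754 closed regions and 99.7% of 4252 kept ones, wound with UVB 67.9% and 99.6%, and the cultured control 43.9% and 66.1%. Kept regions had a peak in 4 lists by their definition, so they are also the more widely shared ones.

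**Figure D2:**
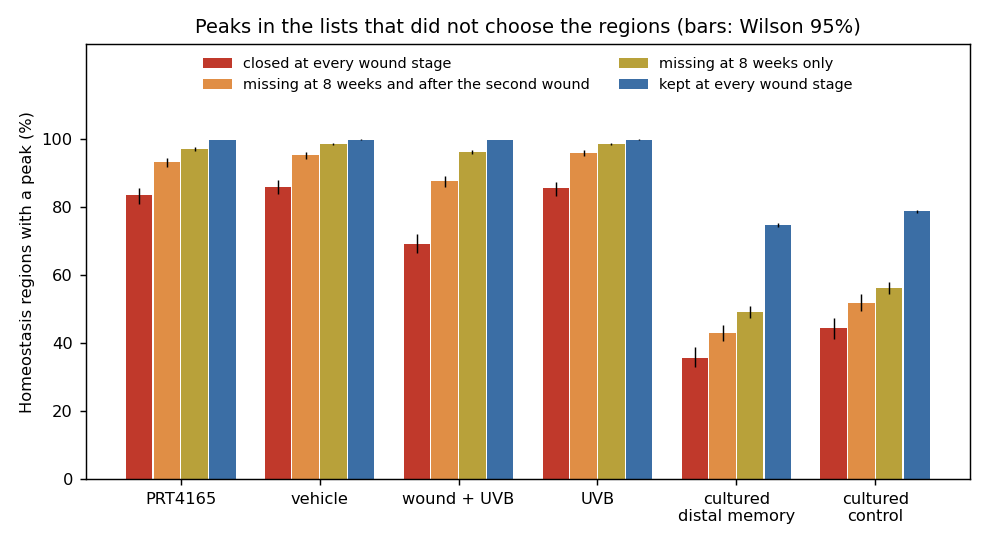
Share of homeostasis regions with a peak (y axis, %) in each of the 6 lists not used to choose them (x axis), for regions closed at every wound stage, missing at 8 weeks and after the second wound, missing at 8 weeks only, and kept at every stage. Black bars are Wilson 95% intervals. Closed regions have the lowest share in every list, from 35.8% in cultured distal memory cells to 86.0% with vehicle.

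Where a closed region was found again, it ranked below the middle of the list. The median percentile of its signal value was 38.6 with PRT4165, 37.7 with vehicle, 35.0 with wound and UVB, 40.1 with UVB, 32.4 in cultured distal memory cells and 33.6 in the cultured control. In homeostasis it was 15.4, and kept regions had medians of 65.6 to 76.1 in the 6 lists. The PRT4165, vehicle and UVB lists had 68411, 70008 and 73340 regions and the wound with UVB list 66541, while the homeostasis list had 35195, the 1-week list 49078, the 8-week list 34644 and the second-wound list 42200. The labels give no read depth, and the part of list length in these shares was not tested.

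The number of other lists that held a closed region varied widely. All 6 held 216 (20.5%) of the closed regions, against 73.3% of the kept regions, and none held 32. The largest class, 344 regions, was held by 4 lists. A peak in all 4 fresh lists not used by the rule, PRT4165, vehicle, wound with UVB and UVB, was listed for 574 (54.6%) of the closed regions, against 95.5% of all homeostasis regions. In these 4 lists and in neither culture list were 265 (25.2%), against 23% of all. Neither culture list held 540 (51.3%), against 25.4% of all, and both held 332 (31.6%), against 66.3% of all.

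**Figure D3:**
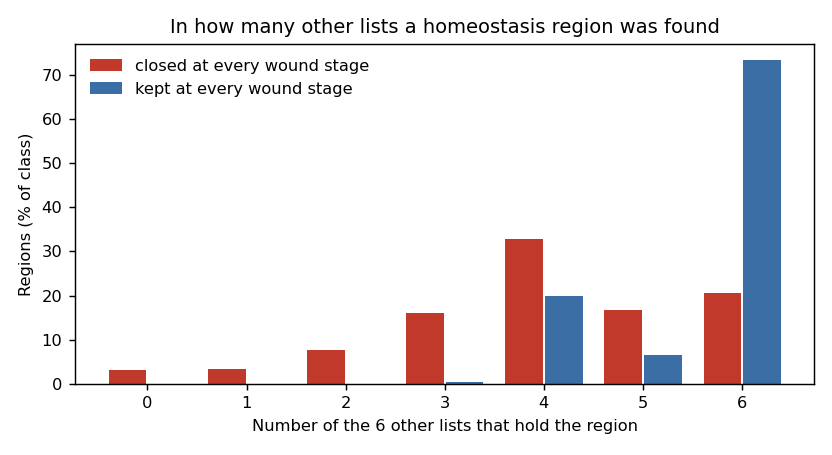
Share of regions in each class (y axis, %) by the number of the 6 other lists with a peak there (x axis), for regions closed at every wound stage and for regions kept at every stage. Closed regions spread over all numbers and are most common at 4 lists, while 73.3% of kept regions were in all 6.

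By the number of closed regions in a single list of a pair, the UVB lists with and without a wound differed most. Over all homeostasis regions the culture pair differed most, as given below. Of the closed regions, 45 (4.28%) were listed with wound and UVB but not with UVB, and 216 (20.5%) with UVB but not with wound and UVB, while 684 were in both. Over all homeostasis regions 0.439% and 2.07% were found in a single list of the pair in these directions. Of the regions in a single list of the pair, 82.8% of the closed ones were in the UVB list, against 82.5% over all homeostasis regions and 86.0% of those missing at 8 weeks and after the second wound, so the direction was that of the whole lists. With both lists limited to 66541 regions by signal value, the counts were 135 with wound and UVB alone and 172 with UVB alone, so the gap was smaller at equal length. Among kept regions the same limit gave 246 and 58. The wound with UVB list also holds the Y-linked peaks that the UVB list lacks, and on autosomes the shares of closed regions were 69.6% and 85.6%. PRT4165 and vehicle were closer, with 82 closed regions (7.79%) with PRT4165 alone and 109 (10.4%) with vehicle alone. Over all homeostasis regions the shares were 0.685% and 1.14%, and at equal length the closed regions numbered 98 and 102. In culture 45 closed regions (4.28%) were found in distal memory cells alone and 135 (12.8%) in control cells alone, against 1.68% and 6.58% of all homeostasis regions. At equal length the counts of closed regions became 103 and 88, so the direction turned.

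Some closed regions had a peak in each of the other fresh lists without a wound, PRT4165, vehicle and UVB, and none with wound and UVB. There were 156 of them, 14.8% (12.8 to 17.1%) of the closed regions, against 0.231% of kept regions and 1.7% of all homeostasis regions. The share was 8.02% (6.81 to 9.42%) of regions missing at 8 weeks and after the second wound and 2.75% of regions missing at 8 weeks only. The opposite pattern, a peak with wound and UVB and in none of those 3 lists, was seen for 8 closed regions, 0.760% (0.386 to 1.49%), against 0.0293% or 10 of all homeostasis regions, so closed regions had the higher share in both directions. This split was made after the data were seen, and it shares the shorter list and the Y-linked difference named above. Of the 156 regions, 17 lay within 1 kb of a gene end and 85 were in at least 1 culture list. The strongest lay near Mrpl22 and Mkrn3, whose values follow, and the next ones in signal that had a gene within reach lay near Ccng1 and Otulinl. The Otulinl region (chr15:27642987-27643312) had signal values of 9.35 in homeostasis, 12.3 with PRT4165, 10.6 with vehicle, 14.3 with UVB, 9.29 in distal memory and 9.57 in control cells.

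The 10 strongest closed regions had signal values of 10.4 to 12.2 in homeostasis, ranks that lie above the middle of that list. The strongest lay 200 bp from an end of Mrpl22 (chr11:58179647-58179930), which encodes a protein of the mitochondrial ribosome. Its signal value was 12.2 in homeostasis, 10.4 with PRT4165, 11.2 with vehicle, 16.1 with UVB, 10.5 in cultured distal memory cells and 7.49 in cultured control cells. Among the 6 lists not used by the rule, wound with UVB alone lacked it. The region near Mkrn3 (chr7:62400185-62400502), an imprinted gene that restrains the onset of puberty, had 10.9 in homeostasis, 16.0 with PRT4165, 12.6 with vehicle, 15.7 with UVB and 8.84 in the cultured control, and no peak with wound and UVB or in distal memory cells. Inside Col6a6 (chr9:105819260-105819460), which encodes a collagen VI chain, the value was 11.4 in homeostasis, 7.49 with PRT4165, 10.4 with vehicle, 15.2 with wound and UVB, 10.01 with UVB, 19.2 in distal memory and 15.5 in control cells. In its own list the cultured distal value stood at percentile 95. The region near Trhr (chr15:44154607-44155094), the receptor for thyrotropin-releasing hormone, had 10.9 in homeostasis, 19.2 with PRT4165, 13.4 with vehicle, 23.6 with wound and UVB and 20.02 with UVB, at percentile 96 of the wound with UVB list. It lay 208912 bp from the nearest wound-stage peak.

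Of the same set, 5 more regions were near or inside Stam2, which sorts receptors at endosomes, Pabpn1, the nuclear poly(A)-binding protein, the kinase gene Camk1d, Mtmr12 and the folate enzyme gene Mthfs. These 5 had a peak in the 4 fresh lists not used by the rule. Camk1d, Mtmr12 and Mthfs had none in culture, and Stam2 had one in distal memory cells alone. Pabpn1 was in both cultures at low rank, with signal values of 5.24 in distal memory and 5.47 in control cells against 16.5 and 17.5 with wound and UVB and with UVB. Ccdc38 and Actl6a, a subunit gene of chromatin remodelling complexes, also had closed regions in all 6 lists.

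**Figure D4:**
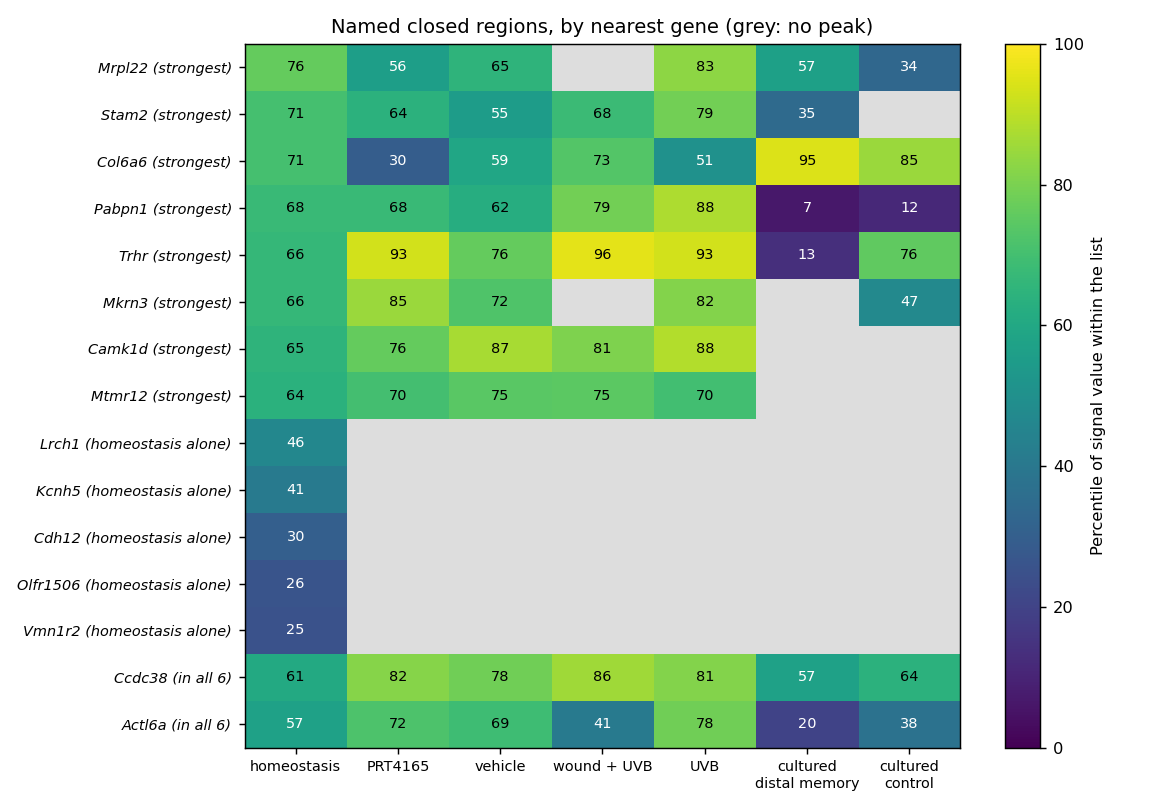
Percentile of the authors' signal value within its own list (colour and number), for the 8 strongest closed regions, the 5 strongest found in homeostasis alone and the 5 strongest held by all 6 other lists, of which 3 are among the 8 (rows, by assigned gene), in homeostasis and the 6 other lists (columns). Grey cells had no peak, and the region near Mrpl22 lacks a peak only with wound and UVB.

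Of the 32 regions listed in homeostasis alone, the strongest 5 had signal values of 7.14 (Vmn1r2) to 8.799 (Lrch1). They lay inside Lrch1 (chr14:74828123-74828573), near Kcnh5, inside the cadherin gene Cdh12, near the odorant receptor gene Olfr1506 and near the pheromone receptor gene Vmn1r2. The Lrch1 region had a −log10 p of 60.9, the others 24.9 to 31.7. The Kcnh5 gene, which encodes a potassium channel, had 2 homeostasis regions in all, and both were closed. They are 139 bp apart on chromosome 12 and lie over 90 kb from the gene, so the gene name says little of them. Bsnd, a chloride channel subunit, was the other gene with 2 regions that were all closed. In 4 further places 2 closed regions of the same gene lay within 10 kb of each other: Stat4, Emp2, Pkd1 and Kctd1.

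Closed regions lay away from gene ends. The summit was within 1 kb of an end of a protein-coding gene for 12.4% (10.5 to 14.5%) of them, against 32.5% of kept regions and 28.5% of all homeostasis regions. Regions missing at 8 weeks only had 17.7% and regions missing at 8 weeks and after the second wound 16.9%. In the weakest 25% by homeostasis signal the share was 14.2% (11.9 to 16.9%) of closed and 19.2% (18.0 to 20.4%) of kept regions, and in the next 25% it was 7.66% (5.02 to 11.5%) and 22.5% (21.4 to 23.6%). The share inside a gene was close, 49.0% (46.0 to 52.1%) of closed and 51.5% of kept regions. No gene lay within 100 kb for 8.84% (7.27 to 10.7%) of closed and 6.31% of kept regions. The X chromosome held 26 closed regions, 2.47% (1.69 to 3.597%) against 1.88% of all homeostasis regions, and its share is read with the sex of the animals unknown. The annotation used gives gene spans, so exons and introns were not separated.

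By position, 959 closed regions were assigned to 902 genes. The sulfotransferase gene Ust, Kctd1 and Spon1 had 3 closed regions each, and no gene had more. Ust kept 6 of its 11 homeostasis regions at every stage, Kctd1 5 of 9 and Spon1 3 of 6. For the strongest Ust region (chr10:8213366-8214381) the signal value was 7.13 in homeostasis, 7.88 with PRT4165, 7.64 with vehicle, 7.49 with UVB and 6.56 in control cells, and no peak was listed with wound and UVB or in distal memory cells. Of the 902 genes, 716 also had a region kept at every stage, and 140 had closed regions alone, 2 of them with 2 regions.

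Gene lists for the tissue and its responses were then read, with 506 of their 509 genes found. A list's count is given out of all its homeostasis regions, to be set beside 3.08% over all, and since the members were chosen by the same contrast nothing is read from the difference. Of 24 lists, 18 had a closed region. The p53 and DNA damage response list had 8 of 103, the TGF-beta and BMP list 8 of 146 and the interfollicular basal layer 6 of 97. The cytokine list had 4 of 87, the differentiation and Notch lists 3 of 85 and 3 of 88, and immediate early genes with AP-1 3 of 107. The Wnt list had 2 of 151, receptor tyrosine kinases and ligands 2 of 139, and the bulge and lower follicle 2 of 124. Wound keratinocyte genes had 2 of 75 and the upper follicle 2 of 51. Glycolysis and hypoxia had 1 of 82, the cell cycle 1 of 43 and developmental Polycomb targets 1 of 41. None was found for the sebaceous gland (35 regions), the circadian clock (76) or the Polycomb subunits and H2A deubiquitinases (58). Melanocyte, T cell and Merkel cell markers also had none, with only 9, 13 and 9 homeostasis regions.

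**Figure D5:**
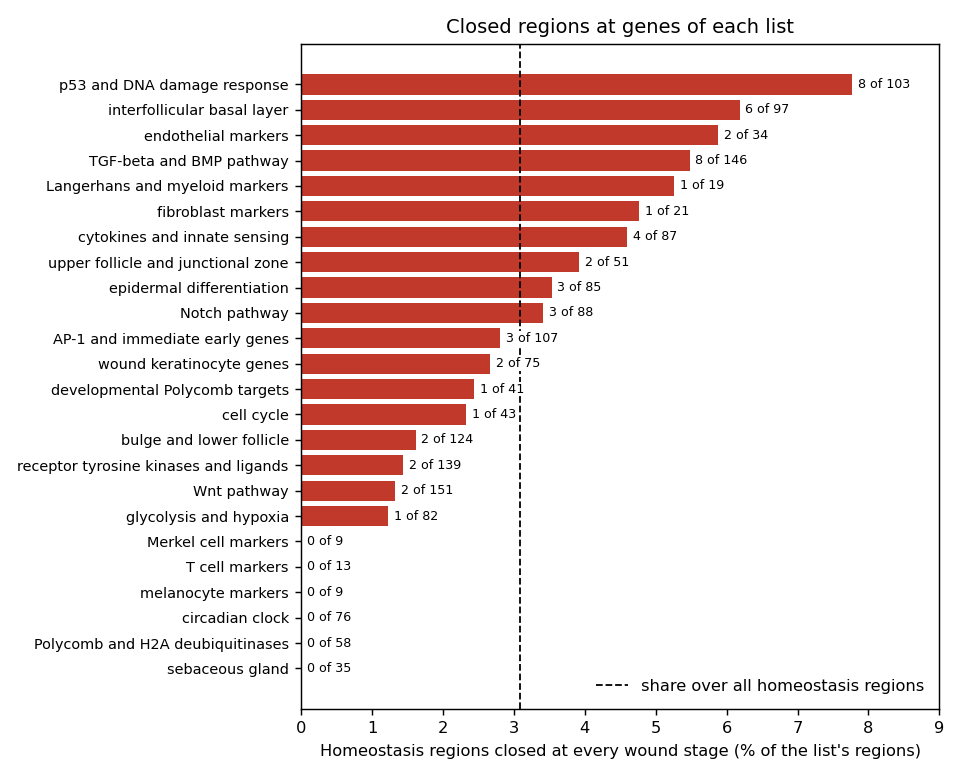
Share of each gene list's homeostasis regions that were closed at every wound stage (x axis, %), with the counts beside the bars and the share over all homeostasis regions, 3.08%, as a dashed line. The p53 and DNA damage list is at the top with 8 of 103, many lists have 1 to 3 closed regions, and 6 have none.

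In the p53 and DNA damage list, Rad51b, which acts in repair of broken DNA by recombination, accounts for 33 of the 103 regions and 2 of the closed ones. Pmaip1, a p53 target that promotes apoptosis, had 2 closed regions of 3, and both were found in all 6 other lists. The nearer one (chr18:66472894-66473366) had signal values of 7.73 in homeostasis, 9.45 with PRT4165, 8.23 with vehicle, 10.7 with wound and UVB, 10.5 with UVB, 10.2 in distal memory and 9.66 in control cells. It thus had a peak in every list except those of the wound stages. Ccng1, the p53 target cyclin G1, had 1 closed region of 2, at chr11:40763455-40763727. Its signal value was 9.38 in homeostasis, 16.7 with PRT4165, 16.6 with vehicle and 19.2 with UVB, with 9.26 in cultured control cells and no peak with wound and UVB or in distal memory cells. The closed region near Zmat3, another p53 target, was in the PRT4165, vehicle, wound with UVB and UVB lists at 11.3 to 13.2 and in neither culture list.

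Genes of the basal layer, which anchors the epidermis to the basement membrane, had closed regions of low signal. Dst, a linker of hemidesmosomes to keratin filaments, had 2, with homeostasis values of 4.69 and 4.45. The nearest wound-stage peak lay 23757 bp from the first of them and only 100 bp from the second. Trp63, the master regulator of stratified epithelia, had 1 of 14 (chr16:25911177-25911532), with 5.98 in homeostasis, 5.53 with vehicle and 8.19 with UVB, and no peak with PRT4165, with wound and UVB or in culture. The nearest wound-stage peak was 571 bp away. Col17a1 and Itga6, both genes of adhesion to the basement membrane, had 1 each at 4.67 and 4.05, with wound-stage peaks 1860 and 556 bp away. Of the homeostasis regions of these genes, 8 of 14 were kept at every stage for Trp63, 9 of 14 for Dst, 3 of 6 for Col17a1 and 6 of 8 for Itga6.

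Among signalling genes, the ligand Tgfb2 had 2 closed regions and Bmp7 2, and the ligand Bmp4 and Skil, an inhibitor of SMAD signalling, 1 each. Both Tgfb2 regions were in all 6 other lists, at 6.33 and 7.69 in homeostasis. For the Wnt pathway, Lef1, a transcription factor that acts with beta-catenin, had 1 of 4 and the feedback inhibitor Axin2 1 of 6, and Lef1 had no region kept at every stage. The Lef1 region (chr3:131139195-131139900) had 7.33 in homeostasis, 9.10 with PRT4165, 8.46 with vehicle and 7.27 with UVB, and no peak with wound and UVB or in culture. Of the Notch genes, the ligand Dll1 had 1 closed region and the coactivator Maml3 2.

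The cytokine and immune genes had their closed regions at a distance. Tslp, an alarmin made by keratinocytes, had 1 of its 2 regions closed (chr18:32748204-32748631), 66913 bp from the gene. Its signal value was 10.02 in homeostasis, 12.2 with PRT4165, 9.44 with vehicle, 10.4 with wound and UVB and 12.4 with UVB, with no peak in culture. Tnfaip3 and Nfkbia, inhibitors of NF-kB signalling, and the alarmin Il33 had 1 each. With genes within 20 kb only, this list had 0 closed regions, and so had the upper follicle list, whose 2 closed regions lay near Gata6 and Plet1. The Gata6 region, 56922 bp from the gene, had a signal value of 7.08 in homeostasis, 9.24 with PRT4165, 9.51 with vehicle, 5.28 with wound and UVB and 8.50 with UVB and was in neither culture list. Gata6 is a transcription factor of the upper follicle and its sebaceous duct.

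Other lists had 1 to 3 closed regions each. In the bulge and lower follicle list these lay in or near Nfatc1 and Nfib, transcription factors of follicle stem cells, and in the list of wound keratinocyte genes one lay near Tnc, a matrix protein of healing skin. The Tnc region was in all 6 other lists, with 6.51 in homeostasis and 14.8 to 21.4 elsewhere. Immediate early genes with 1 each were Egr1, Egr2 and Jund. Differentiation genes were Tgm3, a transglutaminase, and Rptn and Hrnr of the cornified envelope, and single regions lay near Hoxb1, Pfkp, a glycolytic enzyme, and in Ccnd2, a cyclin. The single homeostasis region of Cd207, the langerin gene of Langerhans cells, was closed (signal value 6.51), and so was that of Kdr, a receptor on endothelial cells (6.35). These regions lay 16137 bp from Cd207 and 47394 bp from Kdr. The Langerhans and myeloid list had 1 closed region of 19, the fibroblast list 1 of 21 and the endothelial list 2 of 34. Regions in Sparc and Eng complete the markers of other cell types.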

How the data were processed

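ATAC-seq was done on 20 libraries in 10 groups of 2, with 1 peak list per group made from both libraries. The submitters' processing notes name mm10 as build. The labels' list names mark a conservative IDR peak set. Aligner, peak caller, other filters and depth are not stated in the labels. In each list the authors deposited a score per peak (540 or higher), a signal value, taken here as a fold or enrichment ratio whose reference is not stated, the −log10 p, and the summit offset. Depth is unknown, so precision per library is too.

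Overlapping peaks of the 19 autosomes and the X and Y chromosomes were merged, and a merged region took the values and summit of its strongest peak. Overlap was at least 1 bp. Shares have Wilson 95% intervals. Overlap counts were checked with bedtools 2.31.1, and all 10 were equal, and the scripts were tested on simulated data with known answers, where all 1500 planted closed regions were found. Python 3.11.15, numpy 2.4.6, pandas 2.3.3, scipy 1.17.1 and matplotlib 3.10.9 were used. A region belongs to the protein-coding gene (GRCm38.p6, 21887 genes) around its summit, or otherwise to that with the nearest end within 100 kb. Motifs could be searched in RefSeq promoters only, since no genome was used here.

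Named regions are the 10 strongest, the 5 strongest in homeostasis alone, the 5 strongest in all 6 unused lists, genes with 3 or more members, and up to 4 genes per gene list. A few that this rule names are not reported here. The members, gene lists and comparisons were chosen with earlier results of these data known. Alternatives were other overlaps, list lengths, signal thresholds, windows and gene limits, and autosomes only.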

Additional observations from a re-analysis of the deposited data

How the results depend on the processing

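The number of closed regions, 1052 or 3.08% of 34171, was 1066 with an overlap of at least 50% of the shorter region. It was 1112 with merged homeostasis regions set directly against each wound list, 992 with wound peaks widened by 250 bp and 1026 on autosomes. With the strongest 50% of each list it was 732 of 17597 regions, so the count was lower and the share, 4.16%, higher. It moved to 46 when the strongest 50% of homeostasis was set against the whole wound lists, and to 2667 with the 4 lists at equal length. With the strongest 50% of each other list, the share of closed regions found was 31.7% with PRT4165, 30.7% with vehicle, 23.1% with wound and UVB, 34.8% with UVB, 10.3% in cultured distal memory cells and 13.3% in the cultured control (kept regions 79.4%, 81.9%, 74.7%, 78.7%, 51.2% and 56.8%). In the second-weakest 25% of the homeostasis list by signal the shares were 87.4% with PRT4165, 88.9% with vehicle and 72.8% with wound and UVB. In the next 25%, with 36 closed regions, they were 94.4% with PRT4165, 94.4% with vehicle, 75% with wound and UVB and 91.7% with UVB. With a window of 500 bp, 8.75% of closed regions lay at a gene end. The cause of these shifts was not tested. The other 24 recomputed values stayed within their intervals or within 1.5 times, among them the 780 regions assigned to genes within 20 kb. Of 18 gene lists, 9 changed their count by over 1.5 times with that limit. The TGF-beta and BMP list then had 4, and the p53 list 6. Autosomes only and equal length for pairs of lists were added after the data were seen. No paired analysis was possible because no file holds values per library, and leaving out a replicate was not possible for the same reason. Signal near the lists' thresholds limits every count here: a region just under a threshold counts as closed.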
